A study of Mus musculus with 12 samples.

Results

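The miR-30 family was followed through livers of adult male mice in a design that crossed the mother's diet with the son's own diet. Its members were taken by name, as every row for miR-30a, miR-30b, miR-30c, miR-30d and miR-30e on either arm of the hairpin. This gave 11 of the 386 mature microRNA rows, 5 of them 5p and 6 of them 3p, from 6 hairpins. All animals were wild type C57BL/6 males, fasted before they were killed at 12 weeks. In OO both mother and son ate the obesogenic diet, in CO the mother ate control chow and the son the obesogenic diet, in OC the mother ate the obesogenic diet and the son control chow, and in CC both ate control chow. The control chow RM1 held 7% simple carbohydrates and 3% lipids. The obesogenic diet held 10% simple carbohydrates and 20% lipids and came with sweetened condensed milk of 55% simple carbohydrates and 8% lipids. Each group had 3 libraries, made from whole liver RNA, so fewer cells of a type and less RNA per cell cannot be told apart. The labels name neither dam nor litter, so sons of 1 litter could share a group or lie in different groups. Every p-value speaks for the spread of these 12 libraries alone.

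A microRNA hairpin is cut into a pair of short strands, the 5p arm from its left side and the 3p arm from its right. An Argonaute protein usually keeps mainly 1 of them as the guide and the other is degraded. The guide finds messenger RNAs mainly through its seed, bases 2 to 8. In mouse liver, miR-30c is known to act on Mttp, the transfer protein needed to assemble triglyceride-rich lipoproteins, and in human cells miR-30a is known to repress the autophagy gene BECN1 and miR-30a and miR-30d to favour fat cell formation.

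RefSeq sequences of the GRCm38.p6 build matched 7 of the 11 members by name, and no arm of miR-30b or miR-30d was among them. The matched 5p sequences are shown first because they share a single seed, in capitals, that defines the family.
miR-30a-5p: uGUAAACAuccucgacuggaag
miR-30e-5p: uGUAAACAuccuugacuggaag
miR-30c-5p: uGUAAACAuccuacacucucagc

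With positions counted from 1 at the 5′ end, miR-30e-5p differed from miR-30a-5p by the single substitution C13U, while miR-30c-5p differed from miR-30a-5p at 5 of 22 compared bases. In the sequence table the seed GUAAACA was also that of miR-384-5p, which was not among the 386 rows.

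The matched 3p sequences are shown because they do not carry that seed and fall into 2 seed groups of their own, again in capitals.
miR-30a-3p: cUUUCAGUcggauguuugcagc
miR-30e-3p: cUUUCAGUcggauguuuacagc
miR-30c-1-3p: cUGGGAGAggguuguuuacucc
miR-30c-2-3p: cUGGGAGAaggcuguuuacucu

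miR-30e-3p differed from miR-30a-3p by G18A, and miR-30c-2-3p differed from miR-30c-1-3p by G9A, U12C and C22U. The seed UGGGAGA was also that of miR-6958-5p, which was not among the 386 rows.

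The pair of miR-30c hairpins is shown whole, with both mature arms in capitals, because they give 1 identical 5p arm but different 3p arms. Reads of miR-30c-5p therefore cannot be assigned to either gene, while the 3p rows can.
Mir30c-1: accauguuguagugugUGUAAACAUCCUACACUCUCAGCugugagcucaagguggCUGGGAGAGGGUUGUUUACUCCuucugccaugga
Mir30c-2: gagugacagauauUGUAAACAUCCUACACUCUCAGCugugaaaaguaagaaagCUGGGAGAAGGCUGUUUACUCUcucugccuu

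Each of these genes lies beside another member. Mir30a (chr1:23272269-23272339, plus strand, GRCm38.p6) overlapped no other gene of the GENCODE annotation and lay 19361 bases from Mir30c-2 (chr1:23291701-23291784, plus strand), which sits in an exon of the long non-coding RNA gene Gm27028. Mir30c-1 (chr4:120769534-120769622) and Mir30e (chr4:120772606-120772697) lay 2983 bases apart on the minus strand, both in an intron of Nfyc, a transcription factor subunit gene on the same strand. Mir30f was annotated on the opposite strand at the Mir30e locus.

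Depth ran from 5.45 to 22.2 M reads a library with a median of 13.2 M, at 5.45 to 21.5 M in obesogenic-fed against 7.47 to 22.2 M in control-fed sons. It was 10.5 to 22.2 M with obesogenic mothers and 5.45 to 15.0 M with control mothers. miR-122-5p, the defining hepatocyte microRNA, stood between 19991 and 28851 CPM in every library. Summed marker levels in obesogenic-fed against control-fed sons ranged over 26.8 to 32.6% against 25.5 to 27.5% for 4 of 4 hepatocyte names, 0.291 to 0.891% against 0.283 to 0.518% for 4 of 4 erythroid names and 0.173 to 0.303% against 0.248 to 0.406% for 5 of 5 leukocyte names. They ranged over 1.54 to 2.78% against 2.34 to 2.68% for 2 of 2 endothelial names, 3.35 to 4.58% against 3.13 to 4.79% for 6 of 6 mesenchymal names and 0.0395 to 0.0862% against 0.0392 to 0.0885% for 5 of 5 biliary names. No listed marker was at 0, and the part of these markers in the results below was not tested. CO replicate 3, the shallowest library, stood apart: 124 of 386 rows lay under 70% of their mean in the other 11 libraries, while the next highest count was 46. Results that rest on it are given with and without it. Sample names of sons of obesogenic mothers begin with F and those of sons of control mothers with RC, so maternal diet and whatever the prefix stands for cannot be told apart. The last letter of the names also mostly follows the sons' diet, and the names of OO replicate 3 and OC replicate 2 share a stem.

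The 5p arms carried nearly all of the family's reads. Together they held 6.84 ± 0.355% of the summed CPM and the 3p arms 0.165 ± 0.0165% (SD, n = 12). miR-30a-5p had rank 5 among all rows at 42384 ± 2508 CPM (counts per 1000000), and on its own made up 61.4 ± 2.02% of the family's 5p reads (SD, n = 12). miR-30d-5p followed at 9987 ± 492 CPM, then miR-30c-5p at 7588 ± 1127 CPM, miR-30e-5p at 7558 ± 616 CPM and miR-30b-5p at 1577 ± 211 CPM. The order of these CPM levels held in 12 of 12 libraries for every pair of neighbours except miR-30c-5p and miR-30e-5p. In that pair miR-30c-5p was the higher in 5 of 12 libraries, and the median ratio was 0.991. The mature forms shown are 22 or 23 bases long, so CPM needs little correction for length, but ligation and amplification can favour some sequences and a read share need not be a share of molecules.

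Among the 3p arms, miR-30a-3p was at 896 ± 102 CPM and miR-30e-3p at 440.3 ± 51.4 CPM (SD, n = 12). miR-30c-2-3p was at 190.1 ± 14.6, miR-30d-3p at 90.6 ± 11.8, miR-30c-1-3p at 39.4 ± 9.15 and miR-30b-3p at 11.5 ± 2.36 CPM (SD, n = 12). This order held in 12 of 12 libraries for every pair of neighbours. miR-30b-3p rested on only 44 to 346 reads a library, and miR-30a-5p on 221957 to 1027097. The pair of miR-30c hairpins was unequal in its 3p reads, of which miR-30c-2-3p made up 82.9 ± 3.33% (SD, n = 12). That share averaged 83.3 ± 1.80% in OO, 86.0 ± 3.50% in CO, 82.6 ± 2.34% in OC and 79.6 ± 3.04% in CC livers (SD, n = 3 each), and it was highest in CO replicate 3 at 89.8%.

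**Figure D1:**
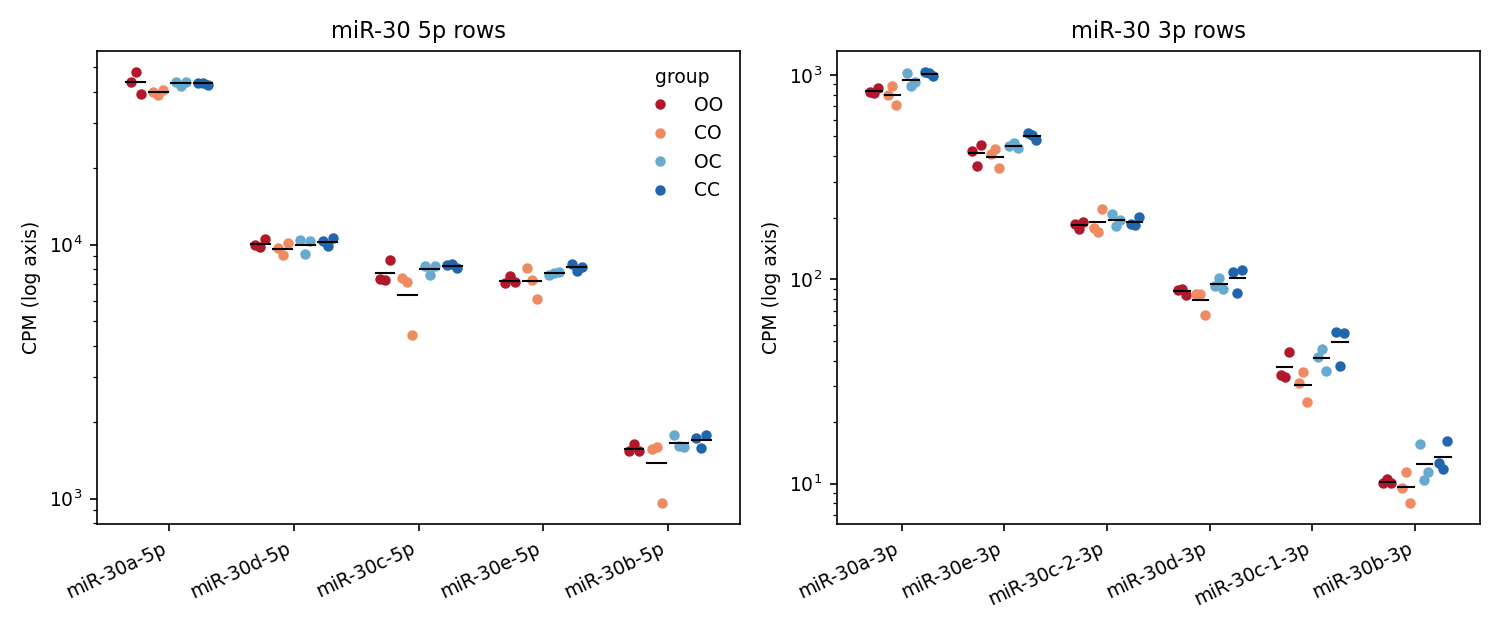
CPM on a log axis of the 5 5p rows (left panel) and the 6 3p rows (right panel) of the miR-30 family, with a point for each of 3 libraries per group and a black line at the group mean. CO replicate 3 is the low point of miR-30c-5p at 4416 CPM and of miR-30b-5p at 964 CPM, and the 3p rows of OO and CO lie mostly below those of OC and CC.

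The 5p row was the higher for all 6 hairpins, though the shared miR-30c-5p row cannot show this for each miR-30c gene. Arm balance, the difference of log2(5p CPM + 1) and log2(3p CPM + 1), averaged 4.10 for miR-30e, 5.30 for miR-30c-2, 5.57 for miR-30a, 6.78 for miR-30d, 6.99 for miR-30b and 7.57 for miR-30c-1. For both miR-30c hairpins the shared 5p row stood for the 5p arm, so these values are upper limits of what either gene gives. As a share of both arms, the 3p reads were 5.50 ± 0.443% for miR-30e, 2.53 ± 0.717% for miR-30c-2, 2.07 ± 0.226% for miR-30a, 0.900 ± 0.116% for miR-30d, 0.722 ± 0.0958% for miR-30b and 0.517 ± 0.0862% for miR-30c-1 (SD, n = 12). miR-30a and miR-30e, whose arms differ by 1 base on each side, thus differed in the 3p share, which was the higher for miR-30e in all 12 libraries (4.56 to 6.06% for miR-30e and 1.68 to 2.32% for miR-30a). The counting rule is not known, and a part of reads assigned across such similar arms was not tested. Over all 125 hairpins with both arms listed, 68 had a mean above 0 and the median was 0.81. Of those 125, 13 had a higher mean arm balance than miR-30c-1 and 38 a higher one than miR-30e.

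**Figure D2:**
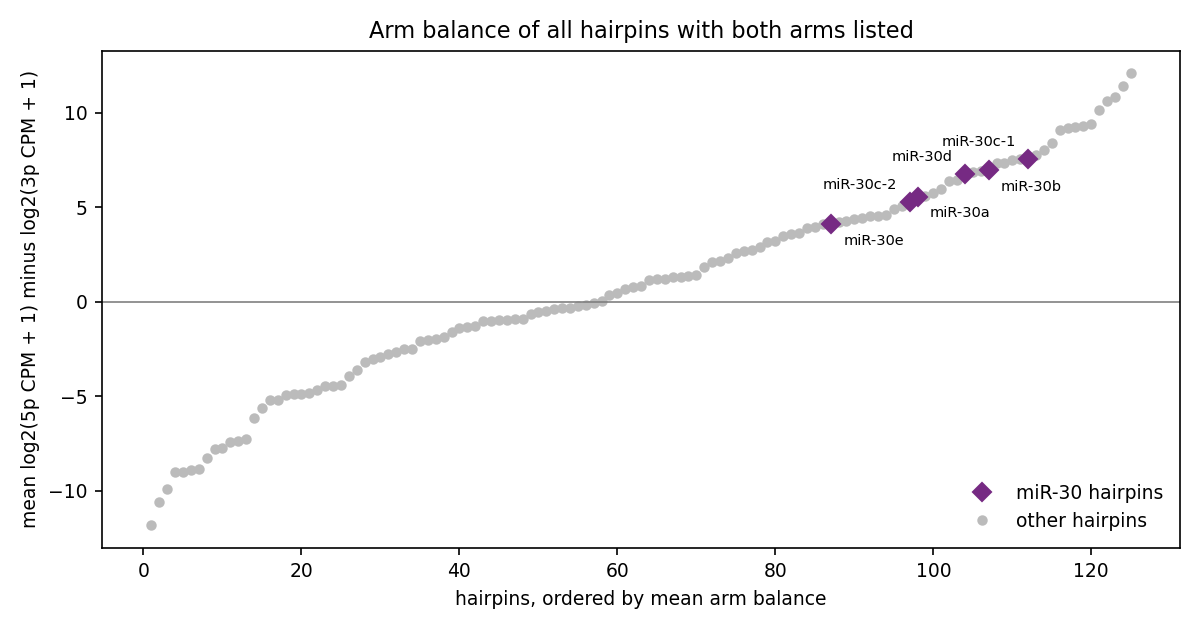
Mean arm balance over 12 libraries of the 125 hairpins with both arms listed, ordered from the lowest to the highest, with the 6 miR-30 hairpins as purple diamonds. They lie between 4.10 (miR-30e) and 7.57 (miR-30c-1), while the median over all hairpins is 0.81.

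CO replicate 3 set several of the family's values. It had miR-30c-5p at 56.1% and miR-30b-5p at 59.1% of the mean of the other 11 libraries, and miR-30e-5p at 79.6%. In the same library miR-30a-5p was at 95.8% and miR-30d-5p at 101% of the others, so the 5p arms did not move together. Of its 3p rows, miR-30c-1-3p was at 61.8%, miR-30b-3p at 68.6%, miR-30d-3p at 72.5%, miR-30e-3p at 77.6% and miR-30a-3p at 78.0% of the others. miR-30c-2-3p was at 118%, the highest of the 12 libraries. The median over all 386 rows in CO replicate 3 was 82.97%. It was also the shallowest library, at 5.45 M reads, and the part of depth in these values was not tested.

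**Figure D3:**
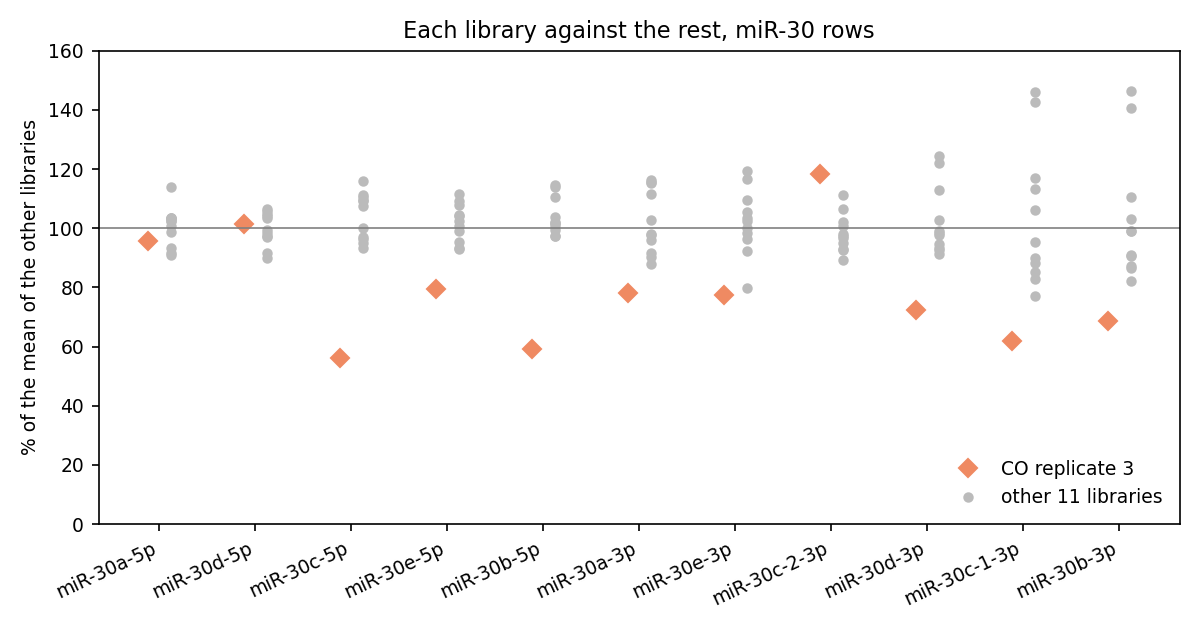
Level of each miR-30 row in each library as a percentage of the mean of the other 11 libraries, with CO replicate 3 as an orange diamond and the other 11 as grey points. CO replicate 3 is the lowest point for 8 of the 11 rows, near 100% for miR-30a-5p and miR-30d-5p, and the highest for miR-30c-2-3p at 118%.

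The first comparison asked how the sons' own diet went with the family, as the average over both maternal diets, 6 libraries against 6. No member passed the test, and every one of the 11 log2 differences was below 0 at the deposited scaling and with median-of-ratios factors, while with TMM factors miR-30d-5p and miR-30c-2-3p both stood at 0.01. limma with Benjamini-Hochberg adjustment over all 386 rows called 0 of 11 members, against 0.777% of all rows, and 5 members had an unadjusted p under 0.05, against 14.8% of all rows. All 5 were 3p rows. Without CO replicate 3, miR-30d-3p among them had an unadjusted limma p of 0.0571, while the rest stayed under 0.05. The median log2 difference was -0.25 over the 6 3p rows and -0.15 over the 5 5p rows, against -0.02 over all 386 rows, and without CO replicate 3 it was -0.21, -0.09 and 0.02. With TMM factors these medians were -0.20, -0.09 and 0.03. Those are counts and medians of a family chosen by name, and its members are not independent of each other.

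miR-30a-3p, the passenger arm of the family's most abundant hairpin, had the smallest p. It stood at 826, 815 and 863 CPM in OO and at 797, 878 and 712 CPM in CO livers, against 1020.5, 880.4 and 919.9 CPM in OC and 1029, 1023 and 989 CPM in CC livers. All 6 obesogenic-fed sons thus lay below all 6 control-fed sons, though the closest pair was CO replicate 2 at 878.3 and OC replicate 2 at 880.4 CPM. Such a separation in this direction was found for 2.07% of all rows. The log2 difference was -0.26 (SE 0.0737, 95% interval -0.42 to -0.10, limma adjusted p = 0.138) at the deposited scaling. With median-of-ratios factors in place of that scaling it was -0.24 and passed, at a limma adjusted p of 0.0435. The share of all rows that passed with those factors is not given here, so that call stands without a background. Over all rows, 0.777% were called at the deposited scaling. Over all 19 alternatives run the log2 difference of miR-30a-3p stayed between -0.30 and -0.21, with limma adjusted p from 0.0435 to 0.322.

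The other 3p rows are likewise the less abundant strands of their hairpins. miR-30c-1-3p had 34.0, 33.2 and 44.2 CPM in OO and 30.9, 35.1 and 25.2 CPM in CO livers, against 41.6, 45.5 and 35.8 CPM in OC and 55.5, 37.7 and 54.3 CPM in CC livers. The diets overlapped, and its log2 difference of -0.41 was the largest in the family (SE 0.137, limma adjusted p = 0.198, and -0.34 without CO replicate 3). miR-30e-3p had 426, 358 and 454 CPM in OO and 409, 434 and 348 CPM in CO livers, against 450.0, 463 and 440.2 CPM in OC and 517, 507 and 478 CPM in CC livers. There only OO replicate 3 reached into the control-fed range, and the log2 difference was -0.24 (SE 0.0855, limma adjusted p = 0.240), or -0.19 without CO replicate 3. miR-30d-3p differed by -0.24 (SE 0.0993) and miR-30b-3p by -0.34 (SE 0.130) on the log2 scale, both with overlapping diets and limma adjusted p of 0.315 and 0.258. Without CO replicate 3 these differences were -0.18 and -0.29. miR-30c-2-3p was the exception among the 3p rows. It had 185, 177 and 191 CPM in OO and 178, 171 and 222 CPM in CO livers, against 209, 182 and 194 CPM in OC and 187, 184 and 201 CPM in CC livers. Its log2 difference was -0.04 (SE 0.0873, 95% interval -0.24 to 0.15), and -0.10 without CO replicate 3.

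Among the 5p guides, the most abundant hardly differed by the sons' diet. miR-30a-5p had 43782, 47702 and 39084 CPM in OO and 39756, 38794 and 40747 CPM in CO livers, against 43723, 41955 and 43673 CPM in OC and 43375, 43328 and 42687 CPM in CC livers. OO replicates 2 and 3 were the highest and the lowest but one of the 12 libraries, so the obesogenic-fed sons spanned the control-fed range. The log2 difference was -0.05 (SE 0.0549, 95% interval -0.17 to 0.07), and that of miR-30d-5p was -0.04 (95% interval -0.17 to 0.09). miR-30e-5p had 7065, 7488 and 7103 CPM in OO and 8104, 7246 and 6120.4 CPM in CO livers, against 7605, 7717 and 7834 CPM in OC and 8363, 7859 and 8198 CPM in CC livers. Apart from CO replicate 1, the obesogenic-fed sons were the lower, with a log2 difference of -0.15 (SE 0.0702, limma adjusted p = 0.357), or -0.09 without CO replicate 3.

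miR-30c-5p, the member known for its action on Mttp in mouse liver, was among the members that rested on that library. It had 7346, 7249 and 8688 CPM in OO and 7385, 7120.1 and 4416 CPM in CO livers, against 8236, 7587 and 8255 CPM in OC and 8321, 8362 and 8098 CPM in CC livers. OO replicate 3 was the highest library and CO replicate 3 the lowest, so the diets overlapped. The log2 difference was -0.24 (SE 0.117, limma adjusted p = 0.371) and -0.12 (SE 0.0578) without CO replicate 3. miR-30b-5p had 1538, 1633 and 1538 CPM in OO and 1569, 1597 and 964 CPM in CO livers, against 1778, 1606 and 1601 CPM in OC and 1729, 1584 and 1785 CPM in CC livers. Its log2 difference was -0.21 (SE 0.118, limma adjusted p = 0.431), and -0.09 without CO replicate 3. The 95% intervals of the sons' diet differences excluded a log2 difference of 1 in either direction for all 11 members and of 0.5 for 9 of 11. Over all 386 rows they did so for 361 and 229.

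**Figure D4:**
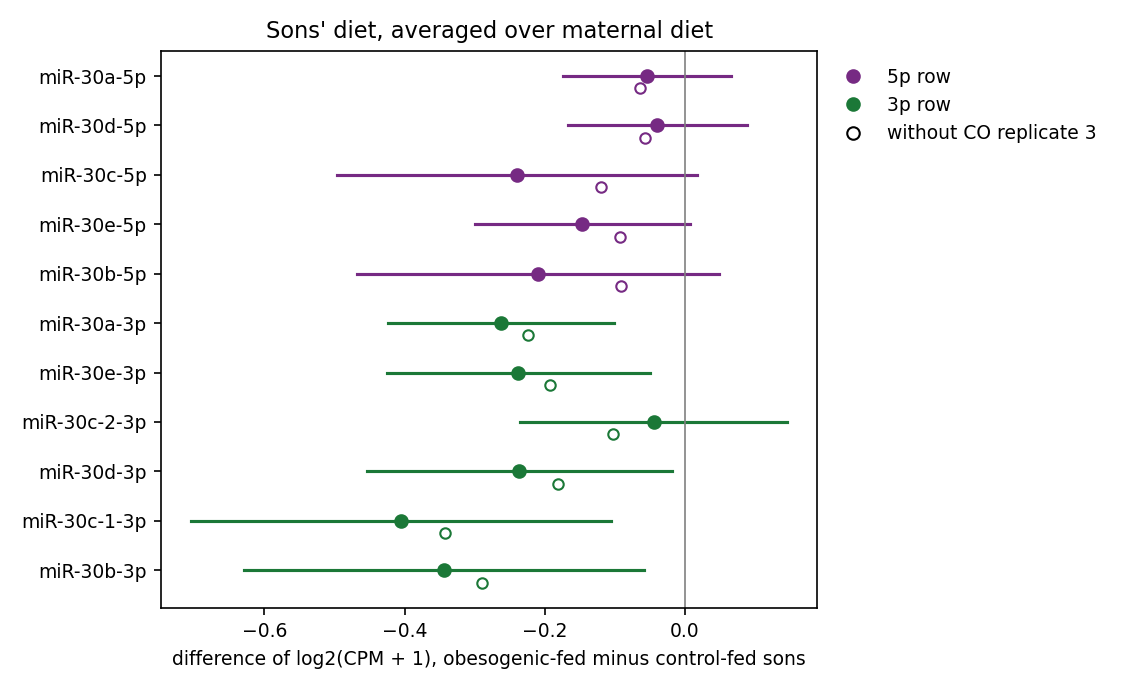
Difference of log2(CPM + 1), obesogenic-fed minus control-fed sons, for the 11 miR-30 rows, with 95% intervals from limma over 12 libraries, 5p rows in purple and 3p rows in green, and open points for the value without CO replicate 3. At the deposited scaling all filled points lie below 0 (with TMM factors miR-30d-5p and miR-30c-2-3p are at 0.01), from -0.41 (miR-30c-1-3p) to -0.04 (miR-30d-5p and miR-30c-2-3p), and 5 of the 6 3p intervals and none of the 5p intervals stay below 0.

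Within control mothers, where only the son's diet differed among the labelled diets, the members were compared between CO and CC. The last letter of the sample names was A in all CC and C or D in all CO livers. Whatever that letter stands for cannot be told apart from the son's diet there. limma called 0 of 11 members between CO and CC, against 0.777% of all rows, and 6 had an unadjusted p under 0.05, against 16.3% of all rows. Without CO replicate 3, the unadjusted limma p was 0.0108 for miR-30a-3p, 0.0207 for miR-30c-1-3p and 0.0438 for miR-30e-3p. It was no longer under 0.05 for miR-30c-5p (0.0548), miR-30d-3p (0.0735) and miR-30b-3p (0.107). All 11 log2 differences were below 0 at the deposited scaling, while with TMM factors miR-30a-5p, miR-30d-5p and miR-30c-2-3p stood at 0.01, 0.04 and 0.12 and with median-of-ratios factors miR-30c-2-3p at 0.07. The deposited scaling gave a median of -0.36 for the 3p and -0.19 for the 5p rows against -0.05 for all rows. With TMM factors these medians were -0.23, -0.06 and 0.06, and without CO replicate 3 they were -0.26, -0.13 and 0.01. All 3 CO libraries lay below all 3 CC libraries for 7 of 11 members, and the same held for 16.3% of all rows. miR-30c-1-3p differed the most, at 30.4 ± 5.02 CPM in CO and 49.2 ± 9.91 CPM in CC livers (SD, n = 3 each), a log2 difference of -0.67 (SE 0.193, limma adjusted p = 0.166, and -0.54 without CO replicate 3). miR-30c-5p averaged 6307 ± 1643 CPM in CO and 8260.2 ± 142 CPM in CC livers (SD, n = 3 each), a log2 difference of -0.43 that was -0.19 without CO replicate 3. That of miR-30b-5p was -0.34 and -0.10 without it.

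Within obesogenic mothers, 0 of 11 members passed between OO and OC by limma, against 0.518% of all rows, and 0 had an unadjusted p under 0.05, against 7.25% of all rows. The median log2 difference was -0.14 for the 3p and -0.05 for the 5p rows, against 0.02 for all rows. All 3 OO libraries lay below all 3 OC libraries for 2 of 11 members, miR-30e-5p and miR-30a-3p, against 5.18% of all rows. The interaction test, which asks whether the sons' diet difference itself differed between maternal diets, called 0 of 11 members by limma, against 0% of all rows, with 0 at an unadjusted p under 0.05 against 3.89% of all rows, so the larger medians under control mothers were not shown to differ from those under obesogenic mothers.

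Between OO and CC, 0 of 11 members passed by limma against 0.259% of all rows, and 2 of 11, miR-30a-3p and miR-30e-3p, had an unadjusted p under 0.05, against 12.2% of all rows. miR-30a-3p averaged 835 ± 25.1 CPM in OO and 1014 ± 21.7 CPM in CC livers, a log2 difference of -0.28 (SE 0.104, n = 3 each, limma adjusted p = 0.302). miR-30e-3p averaged 412 ± 49.1 CPM in OO and 501 ± 20.2 CPM in CC livers, a log2 difference of -0.29 (SE 0.121, n = 3 each, limma adjusted p = 0.345) that was -0.19 without OO replicate 2. All 3 OO libraries lay below all 3 CC libraries for 4 of 11 members, against 8.03% of all rows. The median log2 difference was -0.28 for the 3p and -0.09 for the 5p rows, against 0.05 for all rows. CO against CC and OO against CC share their CC libraries, and OO against OC and OO against CC share their OO libraries, so their values are given side by side only.

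Differences by the mother's diet were small. For obesogenic against control mothers, 6 libraries each, limma called 0 of 11 members, against 0% of all rows, and 0 had an unadjusted p under 0.05, against 6.99% of all rows. The log2 differences ran from -0.05 (miR-30e-3p) to 0.14 (miR-30c-5p), which without CO replicate 3 were -0.09 and 0.03. The 95% intervals excluded 0.5 in either direction for all 11, against 237 of 386 rows. The counts were also 0 of 11 between OC and CC and between OO and CO, each against 0% of all rows, with 0 at an unadjusted p under 0.05 in either, against 1.04% and 12.2% of all rows. Between OC and CC, 10 of 11 log2 differences were below 0, against 168 of 386 rows. The medians there were -0.11 for the 3p and -0.04 for the 5p rows, against 0.03 for all rows. All 3 OC libraries lay below all 3 CC libraries for miR-30e-5p and miR-30e-3p, 2 of 11 members, against 17 of 386 rows. Between OO and CO the medians were 0.08 for the 3p and 0.13 for the 5p rows, against 0.13 for all rows. The family's summed 5p share was 6.95 ± 0.344% in OO, 6.36 ± 0.211% in CO, 6.98 ± 0.218% in OC and 7.08 ± 0.0533% in CC livers (SD, n = 3 each). Its summed 3p share was 0.155 ± 0.00802% in OO, 0.149 ± 0.0114% in CO, 0.172 ± 0.00846% in OC and 0.185 ± 0.00331% in CC livers (SD, n = 3 each). The 3p shares of the 6 obesogenic-fed sons, 0.137 to 0.163%, lay below those of the 6 control-fed sons, 0.166 to 0.189%, while the 5p shares overlapped. Of the single 3p rows only miR-30a-3p, the most abundant of them, was separated in this way, as were 2.07% of all rows.

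Whether the arms differed in their relation to diet was read from the arm balance, in which the scaling of a library cancels apart from the pseudocount. By limma, 0 of 6 hairpins passed in each of the 8 contrasts, against 0% of the 125 hairpins in each, so a difference between 5p and 3p arms in their response to diet was not shown. For the sons' diet, 1 of 6 hairpins had an unadjusted p under 0.05, against 8.8% of all hairpins. That hairpin, miR-30a, had an arm balance of 5.73, 5.87 and 5.50 in OO and 5.64, 5.46 and 5.84 in CO livers, against 5.42, 5.57 and 5.57 in OC and 5.40, 5.40 and 5.43 in CC livers. CO replicate 2 and OO replicate 3 reached into the control-fed range. The difference was 0.21 on the log2 scale (SE 0.0795, 95% interval 0.04 to 0.38, limma adjusted p = 0.498), that is, a 3p share of 1.93 ± 0.223% with the obesogenic and 2.21 ± 0.122% with the control diet (SD, n = 6 each). Without CO replicate 3 the difference was 0.16 (SE 0.0683, limma adjusted p = 0.377). Against CC, the arm balance of miR-30a was higher by 0.29 in OO and by 0.24 in CO livers (limma adjusted p = 0.296 and 0.333), and by 0.14 in CO without CO replicate 3. For CO, 1 of 6 hairpins lay wholly above CC, against 10.4% of all hairpins, and for OO 2 of 6, miR-30a and miR-30b, against 11.2%.

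The arm balance was the higher in obesogenic-fed sons for 5 of 6 hairpins, against 69 of all 125, with a median of 0.15 over the 6 against 0.02 over all 125. These 6 are not independent, since both miR-30c hairpins share their 5p row. Without CO replicate 3 the differences were 0.16 for miR-30a, 0.20 for miR-30b and 0.22 for miR-30c-1. They were 0.12 for miR-30d and 0.10 for miR-30e. miR-30c-2 was the exception. Its arm balance was 5.30, 5.35 and 5.50 in OO and 5.37, 5.37 and 4.31 in CO livers, against 5.29, 5.38 and 5.40 in OC and 5.47, 5.50 and 5.32 in CC livers. Only CO replicate 3 stood away from the rest, since its shared miR-30c-5p row was the lowest and its miR-30c-2-3p row the highest of the 12 libraries. The 3p share of miR-30c-2 was 4.78% there and 2.16 to 2.48% in the other 11 libraries. The log2 difference by sons' diet was -0.19 (SE 0.153, limma adjusted p = 0.639), and -0.02 (SE 0.0678) without that library.

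**Figure D5:**
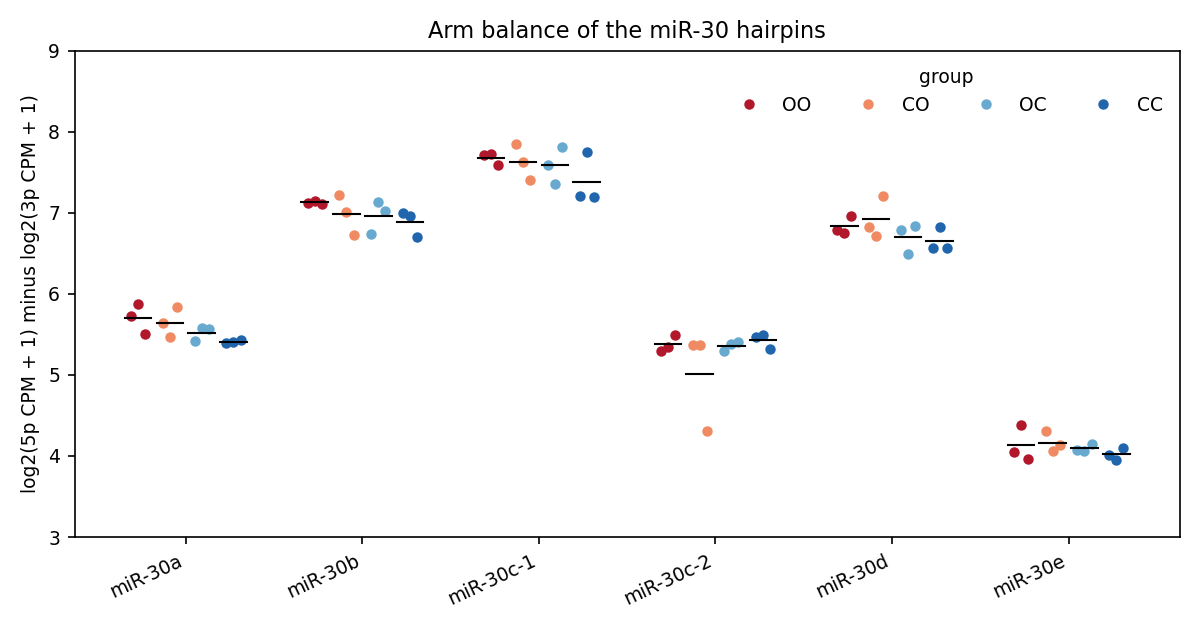
Arm balance of the 6 miR-30 hairpins, as log2(5p CPM + 1) minus log2(3p CPM + 1), with a point for each of 3 libraries per group and a black line at the group mean. The miR-30a points of CC lie together at 5.40 to 5.43, with all OO and CO points above them, and the single low point of miR-30c-2 at 4.31 is CO replicate 3.

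Whether the 2 arms of a hairpin went up and down together was asked over the 12 libraries, with 6 relations and permutation p adjusted over them. The correlation was highest for miR-30b, with Pearson r = 0.75 (permutation p = 6e-05, adjusted p = 3.6e-04) and Spearman rho = 0.84 (adjusted permutation p = 0.00588). miR-30c-1 had r = 0.71 and rho = 0.69 (adjusted permutation p = 0.0141 and 0.0442), and miR-30e had r = 0.68 and rho = 0.64 (adjusted permutation p = 0.0477 and 0.0553). The relation was weaker for miR-30a (r = 0.26, rho = 0.23), miR-30d (r = 0.15, rho = 0.26) and miR-30c-2 (r = -0.42, rho = 0.25), with adjusted permutation p of at least 0.362 for these r values. After the 2 libraries farthest in the 5p value were left out, r was 0.87 for miR-30b (adjusted permutation p = 0.0187), 0.59 for miR-30c-1 (0.116) and 0.26 for miR-30e (0.491). A relation was thus not shown for miR-30c-1 and miR-30e without those libraries. Leaving them out also narrows the range and leaves 10 libraries, which limits the test. For miR-30c-2, r became 0.73 (adjusted permutation p = 0.0429). CO replicate 3 was among those left out for miR-30b, both miR-30c hairpins and miR-30e. Without that library alone, r was 0.91 for miR-30b and 0.70 for miR-30c-2 (adjusted permutation p = 0.00336 and 0.0482), against 0.59 for miR-30c-1 and 0.43 for miR-30e (0.117 and 0.284). Within sons of obesogenic mothers r was 0.93 for miR-30b and within sons of control mothers 0.82 (n = 6 each, adjusted permutation p = 0.244 and 0.0333).

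Outside the family, the rows whose log2 levels were most like its summed 5p rows over the 12 libraries, among 132 rows with a mean of at least 100 CPM, were the shared row of let-7a-1-3p and let-7c-2-3p (r = 0.87), miR-23a-3p (r = 0.85), miR-99b-5p (r = 0.85), miR-26a-5p (r = 0.84) and miR-24-2-5p (r = 0.84). The rows most like its summed 3p rows were miR-31-5p (r = 0.89), miR-26a-5p (r = 0.83), miR-5099 (r = 0.83), miR-24-2-5p (r = 0.78) and miR-26b-5p (r = 0.77). These 10 values are descriptions over libraries that share their diet groups, their depth and, in CO replicate 3, a library that stood apart.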

How the data were processed

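Small RNA of 12 mouse livers, 3 in each of 4 diet groups, was sequenced after miRNeasy extraction and TruSeq small RNA library preparation, per the labels' protocols. The submitters' processing notes list Bowtie 1.2.3. For the genome build, the microRNA reference and the counting rule, nothing was given in the sources read. The deposited file is a table of CPM, reads per 1000000 as scaled by the authors, with 386 mature microRNA rows and no value at 0. Columns summed to 0.866 to 1.17% above 1000000. Groups came from the labelled maternal and offspring diets, and replicate numbers follow accession order and pair nothing. Within each column all values lay within 0.001 reads of multiples of a single step, the worth of 1 read, from which depths of 5.45 to 22.2 M reads (megareads) follow.

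limma 3.58.1 in R 4.3.3 was run on log2(CPM + 1) of all rows, with a variance trend on the mean, a mean for each group, 8 contrasts, two-sided tests, and Benjamini-Hochberg adjustment over all 386 rows within a contrast. An adjusted p under 0.05 passed. This scale understates changes of low rows. Arm balance was tested the same way over 125 hairpins. Permutation tests used 100000 resamples, or all orders for 6 libraries. Scripts were tested on simulated data. Python 3.11.15, scipy 1.17.1 and matplotlib 3.10.9 were used for the rest.

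The family, marker lists and tests were chosen with earlier results of these data known. The rule names every family row, the 5 rows most like the summed 5p and 3p rows, rows sharing a seed and miR-122-5p. Alternatives were pseudocounts of 0.25 and 5, a filter at a mean of 10 CPM, TMM and median-of-ratios factors, depth as a covariate, only the groups compared, no variance trend and each library left out. Planned count models were not run, because the deposited unit is CPM and the reads worked back from its steps were not accepted as counts.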

Additional observations from a re-analysis of the deposited data

Results flagged for a closer look

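In 68 sets of 6 libraries that share a diet, 11 had a lowest or highest library whose gap to the nearest other exceeded the 95% critical value of Dixon's test, given as a share of the range. Chance flags about 1 set in 20, and the sets overlap, since each library belongs both to a set by sons' diet and to a set by maternal diet.

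CO replicate 3 gave 7 of the 11. Its miR-30c-5p level of 4416 CPM lay below 7120.1 to 8688 CPM in the other obesogenic-fed sons, and below 7120.1 to 8362 CPM in the other sons of control mothers. Its miR-30b-5p level of 964 CPM lay below 1538 to 1633 CPM in the other obesogenic-fed sons, and below 1569 to 1785 CPM in the other sons of control mothers. Its miR-30d-3p level of 67.2 CPM lay below 83.4 to 90.0 CPM in the other obesogenic-fed sons. Its miR-30c-2 arm balance of 4.31 lay below 5.30 to 5.50 in the other obesogenic-fed sons, and below 5.32 to 5.50 in the other sons of control mothers.

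OC replicate 1, the deepest library, had the highest miR-30b-3p level among sons of obesogenic mothers, 15.6 CPM against 10.0 to 11.3 CPM in the others. Its miR-30b arm balance of 6.74 was the lowest of that set, where the others lay at 7.02 to 7.15. OO replicate 2 had the lowest miR-30e-3p level among sons of obesogenic mothers, 358 CPM against 426 to 463 CPM in the others. OC replicate 2 had the lowest miR-30c-5p level among control-fed sons, 7587 CPM against 8098 to 8362 CPM in the others.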

How the results depend on the processing

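No paired analysis was run, because the replicate numbers only follow accession order and the labels name no litter. OO replicate 3 and OC replicate 2 share a name stem, and whether they are related is not known. The tests treated them as independent. The count of members passing was 0 of 11 in the 8 contrasts under each alternative run, except for the sons' diet with median-of-ratios factors, where it was 1 (miR-30a-3p). The share of all rows passing with those factors is not given here. Of 1727 member values recomputed, 102 changed sign and none of these was called at either setting, and for arm balance 35 of 926 did. No miR-30 hairpin passed for arm balance under any alternative. Over all 125 hairpins, depth as a covariate gave 2 calls for OO against CC, 4 for CO against CC and 1 for the interaction, fitting only the groups compared gave 8 for OO against CC, and leaving out a library gave 0 to 2 for OO against CO (2 without CO replicate 2). The cause was not tested. The 3 of 6 arm correlations that passed became 1 on deviations from group means, 1 among sons of control mothers and 0 among sons of obesogenic mothers, where 6 libraries limit the test. With median-of-ratios factors r was 0.65 for miR-30b, 0.61 for miR-30c-1 and 0.59 for miR-30e (adjusted permutation p = 0.00324, 0.0129 and 0.0849). The miR-30c-2 correlation of -0.42 became 0.73 without the 2 farthest libraries and 0.70 without CO replicate 3, the last chosen after seeing the data. At TMM factors the sons' diet medians were -0.20 for 3p and -0.09 for 5p rows against 0.03 for all rows. The fewest reads stood behind miR-30b-3p, at most 346 a library, and a part of depth in its spread was not tested. Marker names were matched in the spelling of the table, a choice made after seeing the data.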
